A study of Mus musculus with 10 samples.

Results

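The genes described here are 36 genes of cardiac fibroblasts, of 55401 genes measured in the left ventricle (LV) of mice. They were given as a list of gene names, and were read in 3 groups: 15 genes of resting fibroblast identity, 13 genes linked to activation of fibroblasts toward myofibroblasts, and 8 other genes of stromal cells. All 36 were found in the gene tables, 31 reached the mean level of 1 FPKM (a read level normalized for transcript length and library depth) needed for testing, and the remaining 5 were Lamp5, Angptl1, Runx1, Mkx and Cilp2. Fibroblasts build and maintain the collagen network of the heart. Under mechanical load or transforming growth factor β they can become myofibroblasts, which secrete more matrix and carry contractile fibers. Pdgfra, Tcf21 and Ddr2 are commonly used to identify the resting cell, whereas Meox1, Cilp and Postn are among the genes that mark the activated one.

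The samples were LV tissue from 5 mice with neonatal ascending aortic constriction (nAAC), an operation on newborn mice that makes the LV pump against a narrowed aorta, and from 5 sham-operated mice, with 1 total RNA library per mouse. Every mouse was wild type (WT) and 4 weeks old at sampling, and the newborn mice stayed with their mothers after surgery. The tissue was not sorted, so fewer cells of a type and less RNA per cell cannot be told apart in these values. The question was which genes of resting and of activated fibroblasts differed between the pressure-overloaded and the sham LV.

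Library depth, estimated from the deposited coverage, was 4.86 to 6.82 gigabases in nAAC mice and 5.06 to 5.24 gigabases in sham mice. Mitochondrial genes took 32.8% to 39.9% of the TPM (FPKM rescaled to the same total in each library) in nAAC mice and 33.7% to 49.8% in sham mice. The median log2 FC (fold change, nAAC against sham) of all 11867 genes tested was 0.22, and it was 0.00 after median-ratio scaling, so a gene at 0.22 lay at the middle of all genes. Sham mouse 4 stood apart from the other sham mice. In it 544 genes lay more than 1 log2 unit above the other sham mice, against 15 to 70 genes in each of the others. The deviation of sham mouse 4 ran with transcript length (Spearman's rho = -0.66 across genes, which are not independent replicates). In sham mice 1, 2, 3 and 5 this rho was 0.28, 0.47, 0.40 and -0.02, so trends with length were not limited to sham mouse 4. In nAAC mouse 3 the summed level of 6 atrial marker genes was 257 FPKM, against 16.8 to 156 FPKM in the other nAAC mice, and their part in the results was not tested.

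Of the 31 genes tested, 12 were up-regulated DEGs (differentially expressed genes, limma adjusted p below 0.05 and absolute log2 FC above 1), and none was a down-regulated DEG. Among all genes tested, 5.01% were up-regulated and 0.893% were down-regulated DEGs, 5.91% in all. A log2 FC above 2 with a passed adjusted p was found for 5 of the 31 (Cilp, Fibin, Meox1, Svep1 and Scx), against 0.733% of all genes. By adjusted p alone, 17 of the 31 genes were higher and 1 was lower in nAAC mice, against 27.1% and 4.6% of all genes. All nAAC values exceeded all sham values for 16 of them, against 18.9% of all genes, and the reverse held for 1, against 3.46%. The 12 DEGs were Cilp, Meox1, Scx, Nox4 and Sox9 of the activation genes, Pi16, Cd248 and Medag of the identity genes, and Fibin, Svep1, Islr and Olfml3 of the other stromal genes. Without sham mouse 4 the number of up-regulated members was again 12, with each of these genes past both thresholds. Sox9, Nox4 and Svep1 passed the filter on low values only through the nAAC mice, because their highest sham values were 0.56, 0.53 and 0.88 FPKM, respectively. Mdk also had a sham mean under 1 FPKM, at 0.96 FPKM. These genes are part of the counts above and of the list medians and means below.

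**Figure D1:**
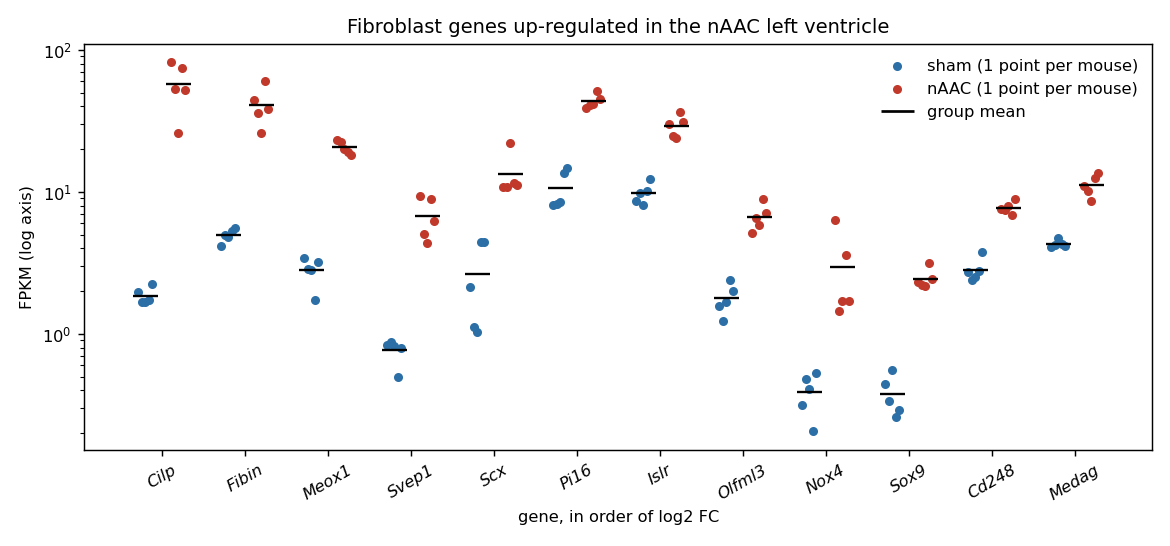
FPKM of the 12 up-regulated fibroblast genes in each mouse, on a log axis, with 1 point per mouse and a bar at each group mean (n = 5 per group). For each gene all nAAC points lie above all sham points, with the widest gap for Cilp, whose means are 57.5 and 1.86 FPKM.

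The sequences just before the start of 5 members show the DNA next to genes that did and did not pass the test. They are the 250 bases before the RefSeq start in GRCm38.p6, the assembly also called mm10, on the strand of the gene. Cilp, Olfml3 and Medag were DEGs, and Dpt and Meox2 did not pass the adjusted p. Capitals mark the letters of the motifs that were searched on both strands, namely TGANTCA for AP-1 and GGAATG for TEAD factors, CAGCTG as an E-box, TGTGGT for RUNX factors, the CCAAT box by these letters, and TATAAA as a TATA box. Their positions are chr9:65264930-65265179, chr3:103738002-103738251 on the minus strand, chr5:149411499-149411748, chr1:164796413-164796662 and chr12:37108290-37108539, in the order printed. RefSeq gives Medag a further start 2089 bases downstream of the gene start in the tables, whose sequence is not shown.
Cilp: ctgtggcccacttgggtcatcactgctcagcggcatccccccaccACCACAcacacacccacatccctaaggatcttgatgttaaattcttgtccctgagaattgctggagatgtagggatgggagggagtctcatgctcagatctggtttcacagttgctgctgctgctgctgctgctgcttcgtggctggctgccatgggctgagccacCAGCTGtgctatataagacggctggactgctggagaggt
Olfml3: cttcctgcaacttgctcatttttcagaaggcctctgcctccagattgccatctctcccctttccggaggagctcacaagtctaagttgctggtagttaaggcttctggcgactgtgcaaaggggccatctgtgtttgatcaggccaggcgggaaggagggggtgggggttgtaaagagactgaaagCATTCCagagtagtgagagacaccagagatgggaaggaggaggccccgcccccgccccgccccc
Medag: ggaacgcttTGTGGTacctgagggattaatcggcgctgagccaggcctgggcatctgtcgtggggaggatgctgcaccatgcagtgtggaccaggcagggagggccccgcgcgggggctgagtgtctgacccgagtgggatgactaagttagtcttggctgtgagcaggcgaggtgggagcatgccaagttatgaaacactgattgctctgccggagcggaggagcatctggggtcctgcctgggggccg
Dpt: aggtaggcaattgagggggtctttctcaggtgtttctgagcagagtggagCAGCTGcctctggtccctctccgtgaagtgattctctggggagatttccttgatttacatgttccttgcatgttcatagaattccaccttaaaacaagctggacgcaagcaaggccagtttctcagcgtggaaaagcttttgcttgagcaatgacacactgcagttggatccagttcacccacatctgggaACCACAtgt
Meox2: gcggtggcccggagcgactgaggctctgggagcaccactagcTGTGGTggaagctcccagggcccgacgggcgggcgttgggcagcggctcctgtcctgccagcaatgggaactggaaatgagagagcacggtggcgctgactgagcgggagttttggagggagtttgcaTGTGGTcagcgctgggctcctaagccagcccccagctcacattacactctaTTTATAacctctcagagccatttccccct
The capitals show an E-box 39 bases and a RUNX match 205 bases before the start of Cilp, and a TEAD match 64 bases before that of Olfml3. Medag held a RUNX match 241 bases before its start. Dpt, which did not pass, held the same 2 motifs as Cilp, an E-box 200 bases and a RUNX match 9 bases before its start. Meox2 held 2 RUNX matches and a TATA box 29 bases before its start. Of the 36 members, 25 had at least 1 RefSeq promoter under their symbol, and a gene was counted where any of its promoters held the letters. The E-box was found in 8 of the 25, which is 32.0%, against 14.7% of 27025 genes with a promoter. TEAD matches were found in 5 of the 25 (14.4% of all these genes), RUNX matches in 5 (15.9%), CCAAT boxes in 9 (37.5%), TATA boxes in 4 (14.3%) and AP-1 matches in 0 (7.82%). A letter match is a description and does not show that a factor binds there. None of the printed matches overlap each other.

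Activation genes included the member with the largest change, Cilp. Of the 10 tested, 5 were up-regulated DEGs, against 5.01% of all genes. By adjusted p, 7 passed upward, against 27.1% of all genes, and 3 did not pass. The median log2 FC of the 10 genes was 1.15, against 0.22 for all genes. Without the filter on low values the medians were 0.79 and 0.03. Cilp (ENSMUSG00000042254, chr9:65265180-65280605, plus strand) encodes cartilage intermediate layer protein, a matrix protein. Its values were 81.7, 53.0, 25.9, 74.5 and 52.5 FPKM in nAAC mice 1 to 5 and 1.98, 1.67, 1.68, 1.72 and 2.25 FPKM in sham mice 1 to 5. The log2 FC was 4.26 (SE 0.24, limma adjusted p = 1.3e-07, n = 5 per group), which ranked 7 of 11867 genes. Mean FPKM was 30.9-fold higher in nAAC mice, and the lowest nAAC value, in mouse 3, was still far above the highest sham value.

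Transcription factors gave a divided picture. Meox1 (ENSMUSG00000001493, chr11:101877510-101894374, minus strand), a homeobox factor induced in activated fibroblasts, was at 23.1, 22.4, 20.2, 19.1 and 18.1 FPKM in nAAC mice 1 to 5 and at 3.40, 2.86, 2.82, 1.72 and 3.23 FPKM in sham mice 1 to 5. The groups were widely separated, with a log2 FC of 2.52 (SE 0.14, limma adjusted p = 1.3e-07). Scx (ENSMUSG00000034161, chr15:76457452-76459458, plus strand), scleraxis, is a factor of tendon cells that acts on collagen genes. It was at 10.8, 10.9, 22.1, 11.6 and 11.2 FPKM in nAAC mice and at 2.15, 1.11, 1.03, 4.42 and 4.46 FPKM in sham mice, with mouse 3 standing above the other 4 nAAC mice. Its log2 FC was 2.06 (SE 0.30, limma adjusted p = 0.00022), and it was 2.23 without sham mouse 4. Scx overlaps Bop1 on the opposite strand, which had means of 9.95 and 4.95 FPKM in nAAC and sham mice, and the sources used here do not state whether reads were counted by strand. Reads of both genes may therefore not be told apart.

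Sox9 (ENSMUSG00000000567, chr11:112782224-112787760, plus strand), a factor of cartilage and of fibrotic tissue, ranged from 2.17 to 3.16 FPKM in nAAC mice and from 0.26 to 0.56 FPKM in sham mice. Its log2 FC was 1.32 (SE 0.11, limma adjusted p = 2.5e-06). Prrx1, a homeobox factor of mesenchymal cells, ranged from 7.47 to 10.7 FPKM in nAAC and from 6.26 to 11.0 FPKM in sham mice, with a log2 FC of 0.08 (95% CI -0.24 to 0.40) whose sign turned with median-ratio scaling. Runx1 (chr16:92601466-92826149, minus strand), a runt-domain factor, lay under the filter. Its values were 0.95, 0.41, 0.54, 1.28 and 0.68 FPKM in nAAC mice and 0.29, 0.36, 0.34, 0.16 and 0.25 FPKM in sham mice, so the groups did not overlap, as for 10.3% of unfiltered genes in this direction. When genes were not filtered, its log2 FC was 0.45 (SE 0.12, limma adjusted p = 0.038), in a fit in which 11.6% of 29309 genes passed upward. Mkx, the tendon factor mohawk, was at most 0.17 FPKM in any mouse, and its groups overlapped.

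Enzymes, adhesion molecules and growth factors were also unlike each other. Nox4 (ENSMUSG00000030562, chr7:87246096-87398710, plus strand), an NADPH oxidase that produces hydrogen peroxide, ranged from 1.46 to 6.31 FPKM with a median of 1.70 in nAAC mice and from 0.21 to 0.53 FPKM in sham mice. The log2 FC was 1.38 (SE 0.26, limma adjusted p = 0.0014), and it was 1.12 without nAAC mouse 1, the highest, and 0.84 when coverage replaced FPKM. The heparin-binding growth factors Ptn and Mdk both rose by adjusted p without reaching a log2 FC of 1. Ptn was at 2.99, 2.66, 4.31, 6.42 and 4.57 FPKM in nAAC mice and at 1.42, 2.17, 1.18, 1.45 and 1.57 FPKM in sham mice (log2 FC 0.98, SE 0.18, limma adjusted p = 0.0012). Mdk was at 1.65, 2.42, 2.55, 3.60 and 1.83 FPKM in nAAC mice and at 0.61, 1.07, 0.85, 1.58 and 0.72 FPKM in sham mice (log2 FC 0.79, SE 0.17, limma adjusted p = 0.0034, and 0.064 with length and GC trends removed). For both genes the lowest nAAC mouse lay just above the highest sham mouse.

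Fap and Cdh11 did not move with the other activation genes. Fap, a surface protease often used to mark activated fibroblasts, was at 1.39, 1.12, 0.62, 1.71 and 1.53 FPKM in nAAC mice and at 0.78, 1.98, 1.49, 0.97 and 1.45 FPKM in sham mice. Its log2 FC was -0.04 (95% CI -0.40 to 0.33, limma adjusted p = 0.89), and its sign turned with TPM. Cdh11, a cadherin of mesenchymal cells, was at 1.77, 1.53, 1.39, 2.13 and 2.03 FPKM in nAAC mice and at 2.13, 2.42, 2.33, 1.56 and 1.46 FPKM in sham mice. The groups overlapped, with a log2 FC of -0.10 (95% CI -0.38 to 0.18, limma adjusted p = 0.56) that was 0.015 with TPM.

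Resting identity genes were higher or did not pass. Of the 13 tested, 3 were up-regulated DEGs, against 5.01% of all genes. By adjusted p, 6 passed upward and 0 downward, against 27.1% and 4.6% of all genes, and 7 did not pass. The median log2 FC of the 13 genes was 0.43, against 0.22 for all genes. Pi16 (ENSMUSG00000024011, chr17:29317680-29330593, plus strand), a peptidase inhibitor that marks fibroblasts of the vessel adventitia, was at 39.2, 40.7, 41.6, 51.4 and 44.9 FPKM in nAAC mice and at 8.10, 8.26, 8.56, 13.5 and 14.8 FPKM in sham mice. Its groups lay far apart, with a log2 FC of 1.97 (SE 0.17, limma adjusted p = 3.6e-06). Cd248 (ENSMUSG00000056481, chr19:5068078-5070682, plus strand), the surface protein endosialin, was at 7.57, 7.48, 7.91, 6.85 and 8.89 FPKM in nAAC mice and at 2.75, 2.40, 2.50, 2.77 and 3.78 FPKM in sham mice. Medag (ENSMUSG00000029659, chr5:149411749-149431723, plus strand), a gene linked to the formation of fat cells, was at 10.9, 10.2, 8.61, 12.6 and 13.5 FPKM in nAAC mice and at 4.10, 4.25, 4.76, 4.29 and 4.19 FPKM in sham mice. Both rose, with log2 FCs of 1.19 (SE 0.12, limma adjusted p = 9.4e-06) and 1.18 (SE 0.12, limma adjusted p = 1.3e-05), and both stayed past the adjusted p but fell under a log2 FC of 1 with median-ratio scaling (0.97 and 0.93) and with length and GC trends removed (0.72 and 0.99). Medag was at 0.84 with coverage in place of FPKM.

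The identity genes in widest use split into those that rose and those that did not pass. Tcf21, a factor needed to form cardiac fibroblasts, ranged from 7.86 to 10.1 FPKM in nAAC and from 3.46 to 5.44 FPKM in sham mice (log2 FC 0.84, SE 0.13, limma adjusted p = 0.00043). Thy1, a surface glycoprotein, ranged from 6.34 to 9.20 and from 3.25 to 5.15 FPKM (log2 FC 0.79, SE 0.13, limma adjusted p = 0.00046). Neither gene's groups overlapped. Pdgfra, the receptor for platelet-derived growth factor, ranged from 6.26 to 11.7 FPKM in nAAC and from 5.07 to 8.30 FPKM in sham mice. Its log2 FC of 0.26 (95% CI -0.10 to 0.62, limma adjusted p = 0.24) lay close to the 0.22 of all genes. Ddr2, a collagen receptor, had a log2 FC of 0.43 (95% CI 0.05 to 0.81, limma adjusted p = 0.077), with 2.69 to 5.14 FPKM in nAAC and 1.54 to 3.61 FPKM in sham mice, the lowest sham value being that of mouse 4.

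Matrix and actin genes of the resting cell were abundant and gave small differences. Gsn, the actin-severing protein gelsolin and the highest of all 36 members, ranged from 410.2 to 636 FPKM in nAAC and from 258 to 519 FPKM in sham mice (log2 FC 0.49, 95% CI 0.04 to 0.93, limma adjusted p = 0.088). Dpt, the matrix protein dermatopontin, ranged from 23.8 to 44.5 and from 26.7 to 29.9 FPKM (log2 FC 0.29, 95% CI -0.07 to 0.64, limma adjusted p = 0.20). Both pairs of groups overlapped. The epicardial factors Tbx18 and Wt1 were low. Tbx18 ranged from 1.08 to 2.13 FPKM in nAAC and from 0.89 to 1.11 FPKM in sham mice and passed the adjusted p (log2 FC 0.34, SE 0.11, limma adjusted p = 0.039). The call was lost with median-ratio scaling (limma adjusted p = 0.26) and when any of 8 of the 10 mice was left out, with limma adjusted p values from 0.016 without nAAC mouse 2 to 0.097 without nAAC mouse 4. Wt1 ranged from 1.59 to 2.38 and from 1.07 to 2.46 FPKM and did not pass (log2 FC 0.19, 95% CI -0.11 to 0.49, limma adjusted p = 0.31). After length and GC trends were removed the sign of Wt1 turned, to -0.15.

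Clec3b and Meox2 were the identity genes with negative values among those tested. Clec3b (chr9:123150946-123157432, plus strand), the plasminogen-binding protein tetranectin, was at 5.88, 12.4, 13.8, 16.5 and 17.0 FPKM in nAAC mice and at 16.4, 14.2, 15.6, 33.9 and 23.5 FPKM in sham mice. The extremes were nAAC mouse 1 and sham mouse 4, and the groups overlapped. Its log2 FC was -0.62 (95% CI -1.23 to -0.02, limma adjusted p = 0.10), -0.39 without nAAC mouse 1 and -0.44 without sham mouse 4. It passed the adjusted p with median-ratio scaling (limma adjusted p = 0.018), and with length and GC trends removed it was a down-regulated DEG, at -1.01 (limma adjusted p = 0.00098). Angptl1, an angiopoietin-like secreted protein under the filter, was at 0.20, 0.28, 0.10, 0.40 and 0.32 FPKM in nAAC mice and at 0.36, 0.44, 0.54, 0.70 and 0.51 FPKM in sham mice. It was lower by 0.26 log2 units without passing (log2 FC -0.26, limma adjusted p = 0.054 with no filter), and it overlaps Ralgps2 on the opposite strand, with means of 1.49 and 1.86 FPKM. Lamp5 was listed at 0 in every mouse.

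**Figure D2:**
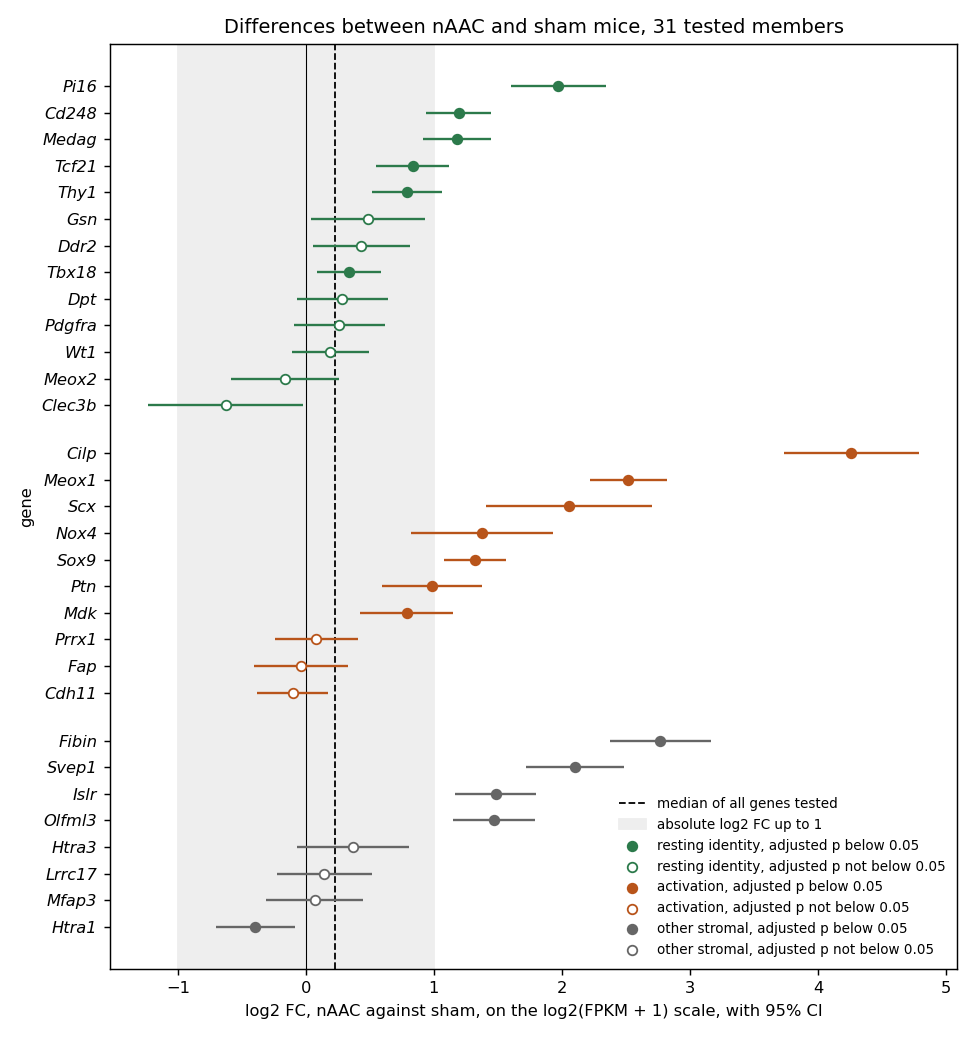
Log2 FC of nAAC against sham on the log2(FPKM + 1) scale with 95% CI for the 31 tested members (n = 5 per group), grouped by role. Filled points passed an adjusted p of 0.05, the dashed line is the median of all genes (0.22), and the shaded band is an absolute log2 FC up to 1. Activation genes reach from -0.10 for Cdh11 to 4.26 for Cilp and identity genes from -0.62 for Clec3b to 1.97 for Pi16.

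Among the other stromal genes, 4 of 8 were up-regulated DEGs, against 5.01% of all genes. By adjusted p, 4 passed upward and 1 downward, against 27.1% and 4.6% of all genes, and 3 did not pass. The median log2 FC of the 8 genes was 0.92, against 0.22 for all genes. Fibin (ENSMUSG00000074971, chr2:110360917-110363183, minus strand), a secreted protein first described in fin bud development, was at 44.4, 35.9, 25.9, 60.0 and 38.3 FPKM in nAAC mice and at 4.14, 4.94, 4.83, 5.31 and 5.53 FPKM in sham mice. Its log2 FC of 2.77 (SE 0.18, limma adjusted p = 3.9e-07) was second to that of Cilp among the members. Islr (ENSMUSG00000037206, chr9:58156268-58204306, minus strand), also known as meflin, a membrane-anchored protein of mesenchymal cells, was at 30.3, 24.6, 23.8, 36.6 and 31.3 FPKM in nAAC mice and at 8.65, 9.77, 8.15, 10.2 and 12.3 FPKM in sham mice (log2 FC 1.48, SE 0.15, limma adjusted p = 9.6e-06). Olfml3 (ENSMUSG00000027848, chr3:103722222-103738001, minus strand), a secreted olfactomedin-like protein, was at 5.13, 6.58, 5.89, 8.86 and 7.10 FPKM in nAAC mice and at 1.57, 1.24, 1.68, 2.40 and 2.02 FPKM in sham mice. It had a log2 FC of 1.47 (SE 0.15, limma adjusted p = 1.1e-05), close to that of Islr. Svep1 (ENSMUSG00000028369, chr4:58042442-58206859, minus strand), a large matrix adhesion protein, ranged from 4.38 to 9.35 FPKM in nAAC and from 0.50 to 0.88 FPKM in sham mice (log2 FC 2.10, SE 0.18, limma adjusted p = 2.5e-06). All 4 genes were separated by group in every mouse.

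Htra1 was the member that fell by adjusted p. Htra1 (ENSMUSG00000006205, chr7:130936111-130985660, plus strand), a secreted serine protease, was at 18.4, 19.3, 18.3, 22.4 and 21.0 FPKM in nAAC mice and at 23.2, 23.3, 23.1, 37.1 and 27.4 FPKM in sham mice. Every nAAC mouse lay below every sham mouse, although by little for sham mice 1 to 3, and the log2 FC was -0.40 (SE 0.14, limma adjusted p = 0.0499). The call was lost when any 1 mouse was left out (limma adjusted p = 0.051 to 0.10, and 0.056 without sham mouse 4) and with TPM (0.24), and it held with median-ratio scaling (0.0011) and with length and GC trends removed (4.5e-05). Mfap3, a microfibril-associated protein, ranged from 2.32 to 4.97 FPKM in nAAC and from 2.25 to 4.39 FPKM in sham mice (log2 FC 0.07, 95% CI -0.31 to 0.44). In nAAC mouse 5, the lowest of its group, the ratio of FPKM to coverage of Mfap3 was 15.9 times the most frequent ratio of that library. In the other mice it was 2.18 to 2.35 times that of their library, and the cause was not tested. Lrrc17, a secreted leucine-rich repeat protein, ranged from 0.58 to 1.74 and from 0.55 to 1.42 FPKM (log2 FC 0.14, 95% CI -0.23 to 0.51). Neither passed the adjusted p, and the sign of each turned after median-ratio scaling.

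The 36 genes hold 4 pairs of related genes, and the log2 difference between the members of a pair was compared between groups within each mouse. Such a difference does not depend on how a library is scaled, apart from the pseudocount. The pairs were chosen with earlier results of these data known, and Meox1, Cilp and Htra1 each already separated the groups. The p values of the pairs are therefore descriptions and add no support of their own. Meox2, the homeobox relative of Meox1, was at 4.84, 4.99, 4.77, 9.97 and 6.49 FPKM in nAAC mice and at 5.11, 9.78, 6.76, 5.99 and 7.10 FPKM in sham mice (log2 FC -0.16, 95% CI -0.58 to 0.26, limma adjusted p = 0.55). Meox1 was the lower gene of the pair in every sham mouse, at 0.29 to 0.67 times the FPKM of Meox2, and the higher in every nAAC mouse, at 1.92 to 4.78 times. The difference changed by 2.68 log2 units between groups (exact permutation p = 0.0079, adjusted over 4 pairs p = 0.011, the smallest p that 5 against 5 allows being 0.0079).

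Cilp2, the relative of Cilp, was at 1.07, 0.96, 1.27, 3.09 and 0.66 FPKM in nAAC mice and at 0.76, 0.11, 0.16, 0.31 and 0.50 FPKM in sham mice. Its groups overlapped through nAAC mouse 5 and sham mouse 1, and without the filter its log2 FC was 0.76 (SE 0.24, limma adjusted p = 0.061). On the log2(FPKM + 1) scale the change of Cilp exceeded that of Cilp2 by 3.50 log2 units (exact permutation p = 0.0079, adjusted over 4 pairs p = 0.011). The pseudocount enlarges this excess, because it understates the change of Cilp2, whose mean FPKM was 3.84-fold higher in nAAC mice. Htra3, a protease related to Htra1, was at 29.8, 36.4, 38.6, 64.0 and 56.8 FPKM in nAAC mice and at 37.2, 27.8, 30.8, 30.5 and 42.3 FPKM in sham mice (log2 FC 0.37, 95% CI -0.07 to 0.81, limma adjusted p = 0.18). Htra1 lay lower against Htra3 in nAAC mice, by -0.76 log2 units (exact permutation p = 0.0079, adjusted over 4 pairs p = 0.011), with 0.35 to 0.62 times the FPKM of Htra3 in nAAC mice and 0.63 to 1.21 times in sham mice. For Ptn and Mdk the difference changed by 0.20 log2 units, and the groups overlapped (exact permutation p = 0.37, adjusted over 4 pairs p = 0.37).

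**Figure D3:**
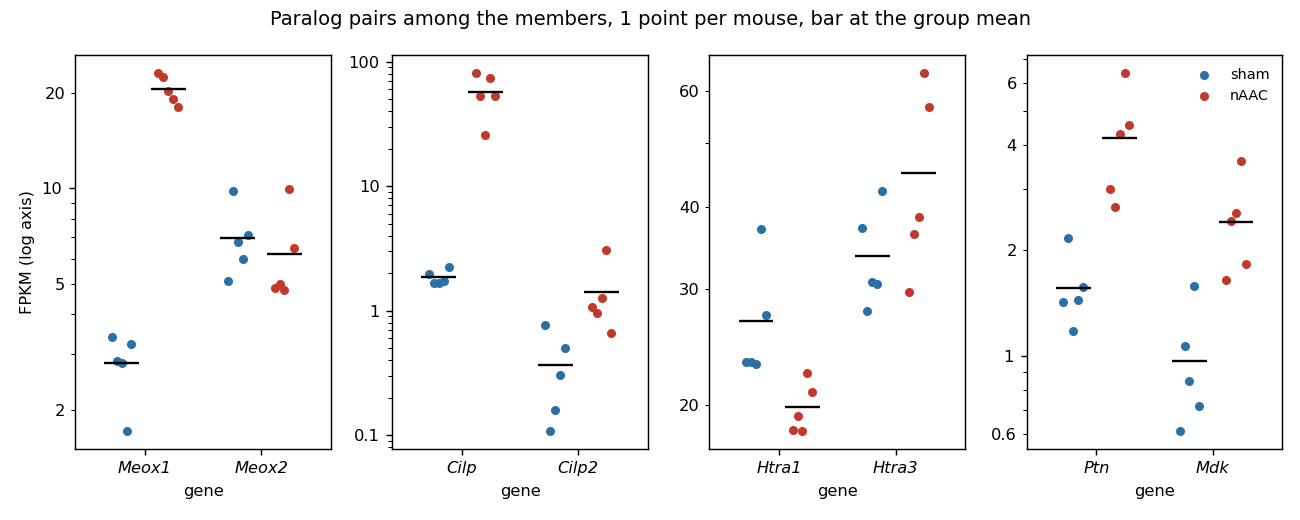
FPKM of both genes of each related pair in each mouse, on log axes that differ between panels, with 1 point per mouse and a bar at the group mean (n = 5 per group). Meox1 and Cilp separate the groups, whereas Meox2 and Cilp2 overlap between them, and Htra1 is lower in nAAC mice while Htra3 overlaps.

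As a level per mouse, the mean log2(FPKM + 1) of the 13 tested identity genes was 3.68 ± 0.21 (SD, n = 5) in nAAC mice and 3.13 ± 0.10 in sham mice. That of the 10 tested activation genes was 2.76 ± 0.16 and 1.44 ± 0.07. Activation genes lay below identity genes in every mouse, by -1.14 to -0.66 log2 units in nAAC mice and by -1.79 to -1.60 log2 units in sham mice, so the distance was smaller in each nAAC mouse than in any sham mouse. In summed FPKM the identity genes ranged from 534 to 818 in nAAC and from 348 to 623 in sham mice and overlapped, Gsn being the main part of each sum. The activation genes ranged from 90.6 to 142 and from 20.6 to 25.7 and did not overlap. These means and sums are descriptions without a test, since the genes were chosen with results of these data known.

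**Figure D4:**
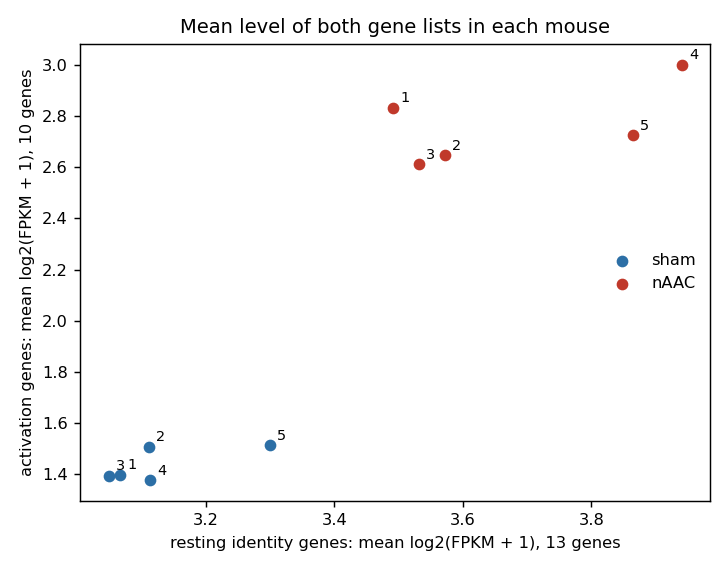
Mean log2(FPKM + 1) of the 13 identity genes (horizontal axis) and of the 10 activation genes (vertical axis) in each mouse, with 1 numbered point per mouse. On the horizontal axis the nAAC mice lie at 3.49 to 3.94 and the sham mice at 3.05 to 3.30, and on the vertical axis the lowest nAAC mouse lies at 2.61 and the highest sham mouse at 1.51.

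Matrix, contractile and signal genes linked to activated fibroblasts were read from 3 further lists. The tissue was not sorted, so the cells that these values come from cannot be told apart. The counts are to be set against the 5.01% of all genes that were up-regulated DEGs. By adjusted p alone, 27.1% of all genes passed upward and 4.6% downward. All 13 tested genes of the matrix list were up-regulated DEGs, with a median log2 FC of 2.01. The largest were Thbs4, a thrombospondin (4.90), Ccn2, a matricellular protein also called CTGF (3.80), and Postn, periostin (3.78). In the contractile list, 7 of 9 genes were up-regulated DEGs, led by Tpm2, a tropomyosin (2.62), Tagln, a smooth muscle actin-binding protein (1.54), and Actg2, a smooth muscle actin (1.38). Acta2, a further smooth muscle actin, passed the adjusted p without being a DEG (log2 FC 0.85, limma adjusted p = 0.015). Its groups overlapped, at 35.5 to 84.5 FPKM in nAAC and 27.8 to 50.2 FPKM in sham mice. Tpm1 was lower without passing (log2 FC -0.43, limma adjusted p = 0.11). In the signal list of growth factors and receptors, 7 of 24 were up-regulated DEGs, and 14 passed the adjusted p upward and 1 downward. Its largest values were those of Ltbp2, which binds the matrix (3.72), Tgfb2 (2.17) and Tgfb3 (1.34), both ligands of the TGFβ family. The gene of the signal list that passed downward was Agtr1a, an angiotensin receptor (log2 FC -0.59, limma adjusted p = 0.0030). Ltbp2 and Actg2 passed the filter on low values only through the nAAC mice, with highest sham values of 0.29 and 0.64 FPKM. Thbs4, Comp and Cnn1 also had sham means under 1 FPKM, at 0.93, 0.90 and 0.88 FPKM.

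**Figure D5:**
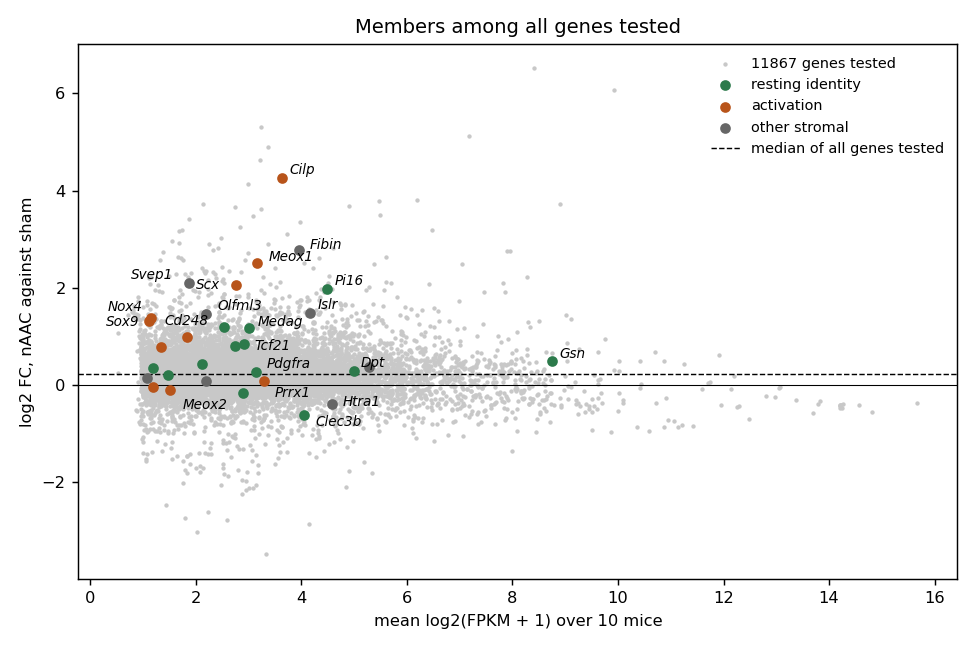
Log2 FC of nAAC against sham by mean log2(FPKM + 1) over 10 mice for the 11867 genes tested (grey), with the 31 tested members in color by role and the dashed line at the median of all genes (0.22). Cilp, at 4.26, lies among the highest points, and Gsn is the most abundant member.

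Markers of other cells that the tissue holds passed the adjusted p in part, and their counts are to be read against the 27.1% of all genes that passed upward and the 4.6% that passed downward. Of mural cell markers, 5 of 8 passed the adjusted p upward, from Abcc9 at -0.53, which did not pass, to Myh11 at 1.25. In the endothelial list 1 of 8 passed, with values from -0.02 for Tek to 0.66 for Kdr, and in the macrophage list 3 of 7, from 0.11 for Csf1r to 1.20 for C1qa. Schwann cell markers passed in 2 of 3 tested genes, with the highest value at 1.01 for Pmp22, and their summed level was 40.9 to 55.6 FPKM in nAAC and 18.6 to 28.9 FPKM in sham mice. Of valve and cartilage markers 1 of 3 passed, from -0.25 for Cytl1 to 1.87 for Fmod, and of mesothelial markers 1 of 5, from 0.21 for Krt19 to 1.26 for Krt8, whose highest sham value of 0.60 FPKM lay under the filter. Cardiomyocyte markers passed upward in 3 and downward in 2 of 10, from -0.86 for Pln to 0.86 for Mybpc3. Of 5 atrial markers 1 passed upward, Dkk3 at 2.57, and 1 downward, Stard10 at -1.18.

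Summed marker levels overlapped between groups for mural cells (220 to 336 FPKM in nAAC and 170 to 306 FPKM in sham mice), endothelial cells (244 to 388 and 211 to 319), macrophages (97.0 to 188 and 52.2 to 109), mesothelial cells (7.11 to 27.2 and 4.68 to 11.7), valve and cartilage (18.1 to 40.6 and 13.3 to 20.7), atrial tissue (16.8 to 257 and 14.3 to 58.3) and cardiomyocytes (16412 to 24963 and 17938 to 32231). The macrophage sums and the valve and cartilage sums overlapped only through sham mouse 4. The other sham mice reached at most 76.5 FPKM for macrophages, where the lowest nAAC sum was 97.0 FPKM. For valve and cartilage they reached at most 18.09 FPKM, just under the lowest nAAC sum of 18.12 FPKM. No marker of these lists was at 0 in every mouse. Scx was highest in nAAC mouse 3, the mouse with the highest atrial and mesothelial sums. With the level of Myl7, an atrial myosin light chain, as a covariate, 12 members were up-regulated DEGs, and the part of other cell types in these results was not tested.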

How the data were processed

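RNA was extracted from LV tissue with Trizol and libraries were made with the NEBNext Ultra kit, per the labels. For each mouse the authors deposited a gene table of coverage (reads over each base), FPKM and TPM, mapped to mm10 per the submitters' processing notes. The aligner, the quantification tool and strand use are not given in the sources used here. Rows sharing a gene ID were summed, FPKM was used as deposited by the authors, and 0 columns were left unused as belonging to other samples. Groups came from the sample labels, and replicates are separate mice.

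Because the tables hold no counts, limma 3.58.1 (R 4.3.3, empirical Bayes with trend) was run on log2(FPKM + 1) for genes with mean FPKM of at least 1, with all 5 nAAC and 5 sham mice and no covariate. Fold changes on this scale understate the change of low genes. P values were adjusted by Benjamini-Hochberg over all 11867 genes. A gene was a DEG where its adjusted p was below 0.05 and its log2 FC above 1 in absolute value. Pairs were compared by two-sided exact permutation tests in Python 3.11.15 with scipy 1.17.1. Depth came from the modal FPKM to coverage ratio and rests on a minority of genes. The test was checked on simulated data.

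The members, the lists and the tests were chosen with earlier results of these data known. The rule for named genes was as follows. Every tested member was named. The value of every mouse was given for DEGs whose mean log2 value was 2 or more, for genes with a negative log2 FC, for related pairs and for genes under the filter whose groups did not overlap. Pathway lists gave their 3 largest changes and marker lists their highest and lowest, of which 1 value is not reported here. Alternatives covered scaling, filter, pseudocount, threshold, unit, covariates, length and GC trends, a replicate block, narrower gene lists and leaving out each mouse. The use of coverage and of Myl7 as a covariate was chosen after seeing the data. Other data of the study were not analysed here.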

Additional observations from a re-analysis of the deposited data

Results flagged for a closer look

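Gaps between mice were measured on the log2(FPKM + 1) scale. In 6 of 68 groups of 5 values, the highest or lowest mouse stood apart from the other 4. Its gap to the nearest value was more than 0.71 of the whole range. At 1 in 20 groups, 3.4 would be expected by chance. Scx in nAAC mouse 3 had the largest such gap, 0.903 of the range. Sox9 was highest in nAAC mouse 4, with a gap of 0.718. In sham mouse 4, which stood apart across all genes, Pdgfra was lowest with a gap of 0.722 and Svep1 was lowest with a gap of 0.783. In sham mouse 5 the mean log2 value of the identity genes was highest with a gap of 0.745, and so was that of the other stromal genes with a gap of 0.80.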

How the results depend on the processing

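The 12 up-regulated members were 10 with median-ratio scaling, with length and GC trends removed or with coverage, 14 with a pseudocount of 0.1, 15 with TPM, 17 by adjusted p alone and 5 when tested against a log2 FC of 1. Identity genes up-regulated fell from 3 to 1 with median-ratio scaling, with length and GC trends removed and in the test against a log2 FC of 1, and were 6 by adjusted p alone. In the test against a log2 FC of 1, 2 activation and 2 other stromal genes were up-regulated. The 701 DEGs among all genes became 1121 with a pseudocount of 0.1, 3757 by adjusted p alone, 164 in the test against a log2 FC of 1 and 1075 with TPM. Median-ratio scaling moved the median of all genes by 0.22 and the share of DEGs that were higher from 84.9% to 64.2%. The median log2 FC of identity genes, 0.43, was 0.21 with median-ratio scaling, 0.62 with TPM and 0.14 with trends removed. That of activation genes, 1.15, was 0.98 with median-ratio scaling, 0.79 without the filter, 1.89 with a pseudocount of 0.1, 1.46 with TPM, 0.99 with Xist as a covariate, 0.97 with trends removed, 0.80 with coverage and 1.72 with the narrower lists. Their difference, 0.72, was 0.40 without the filter, 1.33 with a pseudocount of 0.1, 0.44 with coverage and 1.28 with the narrower lists. The causes of these changes were not tested.

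Leaving out each mouse gave 662 to 784 DEGs, 3 identity, 5 to 6 activation and 4 other stromal genes up-regulated, medians of 0.31 to 0.51 for identity and 1.05 to 1.22 for activation genes, and a difference of 0.65 to 0.83. Of the 31 genes, 24 kept their sign over 21 alternatives. The sign turned for Prrx1 (-0.17 with median-ratio scaling, -0.077 with trends removed, -0.017 to 0.17 leaving out each mouse), Mfap3 (-0.15, -0.11, -0.13 with coverage, -0.049 to 0.19), Lrrc17 (-0.017 and -0.084), Fap (0.072 with TPM, 0.034 with Myl7 as a covariate, -0.13 to 0.080), Cdh11 (0.015 with TPM), Wt1 (-0.15 with trends removed) and Htra3 (-0.094 with trends removed). None of these 7 genes passed the adjusted p.

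No pairing of the mice by replicate number was seen, but the sample titles give only the numbers, so whether mice were paired is not known. Same-numbered mice had correlations of 0.19, -0.10, -0.32, -0.03 and 0.04, and 0 of 5 nAAC mice correlated best with the sham mouse of their number. With the replicate number as a block there were 704 DEGs, 700 of them shared, with 3 identity, 5 activation and 4 other stromal genes up-regulated, and by limma adjusted p alone Clec3b passed (0.033) and Tbx18 did not (0.083). The estimated depth limits statements on members under 1 FPKM.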
